A study of Mus musculus with 6 samples.

Results

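The purine nucleotide cycle and the adenylate enzymes beside it were read from 15 probes whose platform annotation names one of 8 genes: Ampd1, Ampd2, Ampd3, Adsl, Adss, Adssl1, Ak1 and Xdh. The array carries 45281 probes, and 19057 gene symbols are named by a probe with a single symbol. RNA came from the tibialis anterior, a mostly fast-twitch hindlimb muscle, of male mice aged 3 months, with 3 arrays of wild-type mice and 3 arrays labelled PGC1b transgenic, and no other allele or agent is named for either group. The labels give neither the promoter that drives the transgene nor whether each array holds a separate animal. The p-values therefore reflect array-to-array spread, some or all of which may be technical.

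The purine nucleotide cycle turns AMP into IMP and back. AMP deaminase, encoded by the Ampd genes, removes the amino group of AMP. Adenylosuccinate synthetase, encoded by Adssl1 in muscle and by Adss in most tissues, joins the IMP to aspartate, and adenylosuccinate lyase, encoded by Adsl, splits the product into AMP and fumarate. Adenylate kinase, of which Ak1 encodes the main cytosolic form of muscle, converts a pair of ADP molecules into ATP and AMP and so supplies the deaminase during contraction. Xanthine oxidoreductase, encoded by Xdh, makes urate from hypoxanthine and xanthine, and in mice uricase carries urate on to allantoin. In skeletal muscle the cycle is known for holding down AMP and ADP in hard-working fast fibres, where Ampd1 is the deaminase gene of adult fibres.

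Each wild-type array had 15338 to 15691 probes above background, and each array labelled transgenic 17525 to 17604. Ppargc1b, the gene the genotype names, was lower in the arrays labelled transgenic: its only probe had unnormalized signals of 497.2, 648.7 and 708.9 in wild type and 281.3, 373.4 and 309.8 in the others, a log2 difference of -1.32 (limma adjusted p = 0.000671). Whether that probe lies in the transgene is not known here, so every direction below rests on the labels alone, and the group is called labelled transgenic. The muscle markers Acta1, Ckm and Mb were above background on all 6 arrays, while the 3 Dmd probes were not on any. Of 15 macrophage markers tested 14 rose, and their summed signal was 6199 to 6832 in wild type and 29070 to 46690 in the arrays labelled transgenic. Itgam, a defining marker of that list, was not above background on any array. Of 12 fibroblast and matrix markers 10 rose, with sums of 16120 to 16600 and 28260 to 34680. Of 9 striated muscle markers tested 4 fell and 1 rose, with sums of 146100 to 150200 and 113600 to 117400. Ttn, Neb, Myoz1 and Ryr1 fell, Des rose, and Acta1, Ckm, Mb and Tcap did not pass the threshold. Beside these marker counts, 27.7% of all genes tested fell and 27.6% rose.

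Levels below are on the log2 scale, background-corrected and quantile-normalized, a difference is labelled transgenic minus wild type, and "rose" and "fell" are used where the Benjamini-Hochberg adjusted p from limma was under 0.05. Of the 15 member probes 11 were above background on at least 3 arrays and were tested, and they cover all 8 genes. The 4 others, a second probe each of Ampd2, Ampd3, Adsl and Adss, were not above background on any of the 6 arrays. Of the 11 tested probes 6 were lower and 1 was higher. Over all 17166 probes tested 53.4% passed, 27.9% as lower and 25.5% as higher. Of the 6 lower probes 5 belong to Ampd1 and Adssl1, so they are not independent. Counted by gene, each through its brightest tested probe, 3 of 8 members fell and 1 rose, where 55.2% of all genes passed, 27.7% as lower and 27.6% as higher. The number of calls was thus near the background. Ampd1 and Ak1 fell and Ampd3 rose by at least 2-fold, as did 6.45% of all genes downward and 10.9% upward. The groups did not overlap in 7 of the 11 probes, against 61.3% of all probes.

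**Figure D1:**
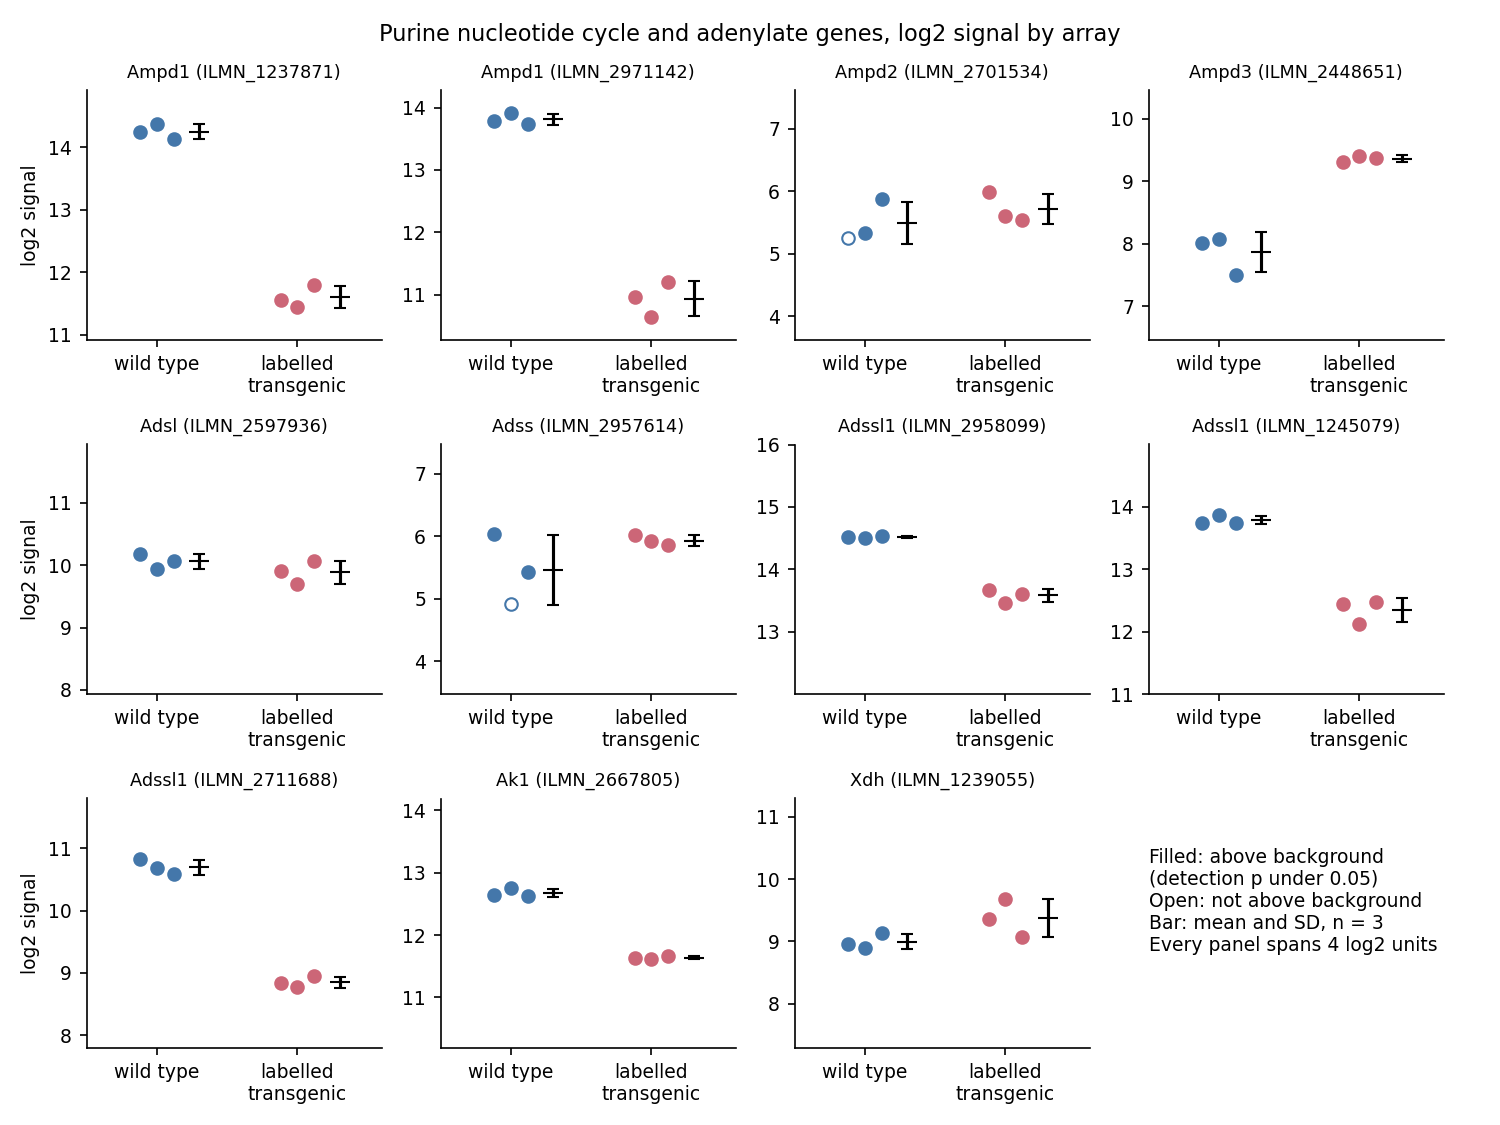
The log2 signal of each of the 11 tested member probes is plotted for the 3 wild-type arrays (blue) and the 3 arrays labelled transgenic (red), with the mean and SD at the right of each group. The groups lie apart for both Ampd1 probes, Ampd3, the 3 Adssl1 probes and Ak1, and overlap for Ampd2, Adsl, Adss and Xdh.

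Ampd1, the muscle AMP deaminase gene, fell further than any other member. The unnormalized signals of its brighter probe (ILMN_1237871) were 21311.8, 21829.9 and 18920.2 in wild type, against 3337.8, 2962.4 and 3495.8 with the transgenic label. All 3 wild-type values lay far above the others, with no overlap. Mean log2 levels were 14.25 ± 0.12 and 11.60 ± 0.18 (SD, n = 3 each). This is a difference of -2.66 (SE 0.13, adjusted p = 1.31e-06), or 6.30-fold, and 98.7% of all tested probes had a smaller absolute difference. The second probe (ILMN_2971142) gave signals of 14798.4, 15586.9 and 14259.8 against 2268.6, 1745.5 and 2297.6. Its difference of -2.87 (SE 0.15, adjusted p = 1.86e-06), or 7.32-fold, has a 95% interval from -3.22 to -2.52 that overlaps the interval of the first probe, from -2.96 to -2.35. The 2 probes therefore gave the same direction and a like size. In RNA of whole muscle, fewer fibres that hold the transcript and less transcript per fibre cannot be told apart. Of 12 fast-fibre markers tested 5 fell and 0 rose, beside 27.7% and 27.6% of all genes. The IIB myosin gene Myh4 had a difference of -3.91, while Myh1, Tnni2, Tnnc2, Mylpf, Myl1, Pvalb and Atp2a1 did not pass. Of 7 slow-fibre markers 5 rose and 1, Myl3, fell by 6.61. The 5 include Tnni1, which passed the detection filter only through the arrays labelled transgenic, so its call is not evidence beyond that detection. Acta1 and Ckm had differences of -0.04 and -0.29 (adjusted p = 0.765 and 0.0596). The summed slow-fibre signal overlapped between the groups, at 7100 to 9296 and 7468 to 9855. Myl3, the brightest slow-fibre gene in wild type, went from a mean log2 level of 12.34 to 5.73. The sum thus sets its fall against the rises of other genes, and its overlap does not show slow-fibre genes to be unchanged. The fast-fibre sum was 240600 to 245800 in wild type and 181400 to 188800 in the other group. The part of these markers in the fall of Ampd1 was not tested.

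Ampd3, known as the deaminase gene of red blood cells and also active in other tissues, rose. Wild-type signals of Ampd3 were 293.4, 293.1 and 209.3, against 790.4, 790.4 and 694.6 in the other group. The lowest of the latter was more than every wild-type value, and wild-type replicate 3 gave the lowest signal. The log2 level went from 7.87 ± 0.32 to 9.37 ± 0.05 (SD, n = 3), a difference of 1.50 (SE 0.16, adjusted p = 7.80e-05), or 2.83-fold, which was larger than 93.3% of the absolute differences of all tested probes. The rise rests on 1 probe (ILMN_2448651), since the other Ampd3 probe gave 64.7 to 70 in wild type and 63.2 to 66.4 in the arrays labelled transgenic, not above background on any array. Of 4 erythroid markers tested, from 10 listed, 0 passed. Their summed signal was 11830 to 15980 in wild type and 7775 to 19180 in the others, which overlap. Hba-a1 was by far the brightest of them, and Slc4a1 spread widely in the arrays labelled transgenic (SD 2.39). So few and variable markers do not show that red-cell content was equal. The macrophage markers rose in the same arrays, as given above, and their part in the rise of Ampd3 was not tested.

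Ampd2, the deaminase gene of most non-muscle tissues, was close to background. The signals of its brighter probe were 88.1, 88.7 and 103.2 in wild type, of which the first was not above background, and 132.7, 111.9 and 99.5 in the arrays labelled transgenic. The groups overlapped. The difference was 0.22 with a 95% interval from -0.21 to 0.65 (adjusted p = 0.352), so a rise of up to 0.65 lay within the error. It was 0.11 without wild-type replicate 1, 0.08 without transgenic replicate 1 and 0.43 without wild-type replicate 3, and did not pass in any of these (adjusted p = 0.699, 0.751 and 0.0706).

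The unequal differences of the isoform genes can be read within each array, where the log2 signal of one probe is subtracted from that of another. Ampd3 minus Ampd1 ranged from -6.63 to -6.24 in wild type and from -2.41 to -2.04 under the transgenic label, a shift of 4.16. Ampd2 minus Ampd1 shifted by 2.88, and Ampd3 minus Ampd2 by 1.28. Adss minus Adssl1 shifted by 1.41 with the brightest Adssl1 probe. The other Adssl1 probes had larger differences (-1.44 and -1.84, against -0.94), so the size of this shift depends on the probe. Ampd2 on wild-type replicate 1 and Adss on wild-type replicate 2 were not above background, so their levels there, and Ampd2 minus Ampd1 and Adss minus Adssl1 on those arrays, are at most the measured values. Ampd3 minus Ampd2 on wild-type replicate 1 is in turn at least 2.77, beside a lowest value of 3.33 in the arrays labelled transgenic, so it is not shown that the groups of this ratio lie apart. As measured, the groups overlapped in none of these 4 ratios, and the exact two-sided permutation test gave p = 0.1 (0.1 after adjustment over the 4 ratios), the smallest that 3 arrays against 3 allow. Only the shift of a ratio is interpretable, since probes differ in brightness for the same amount of RNA.

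**Figure D2:**
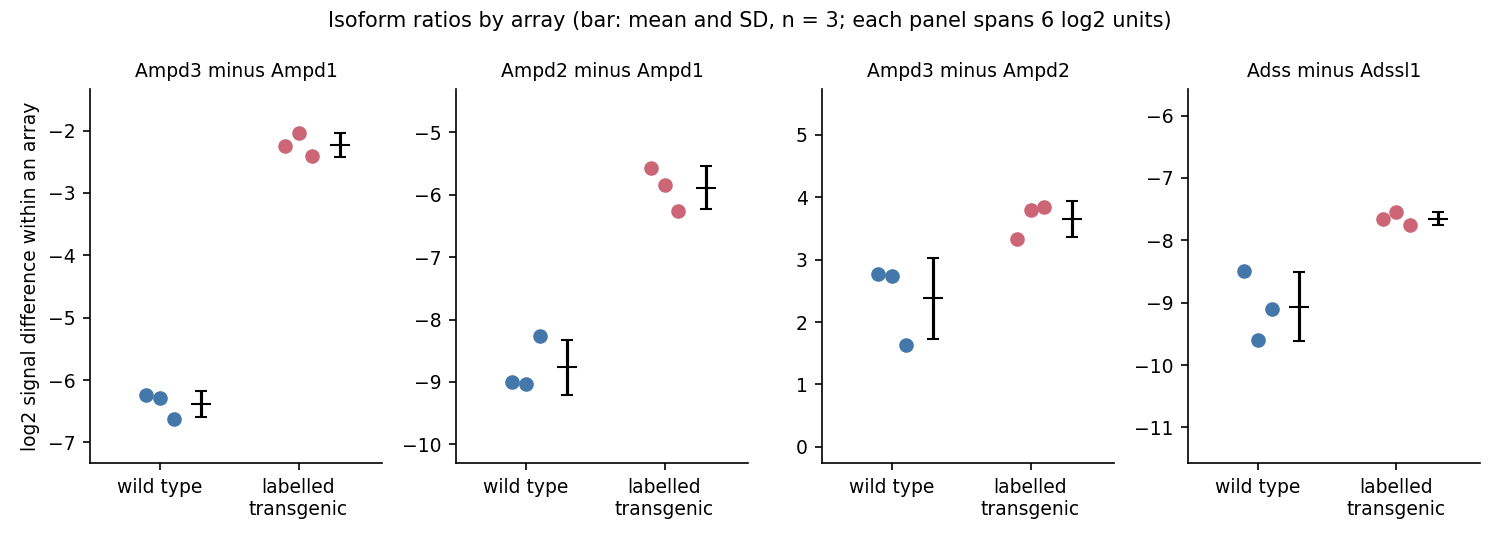
The difference in log2 signal between 2 probes of the same array is plotted for each wild-type array (blue) and each array labelled transgenic (red), with the mean and SD of each group. As measured, all 4 ratios are higher in the arrays labelled transgenic, by 4.16 for Ampd3 minus Ampd1. In wild type, Ampd2 on replicate 1 and Adss on replicate 2 were not above background, so the points that use them are bounds.

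Of the adenylosuccinate synthetase genes, the muscle gene Adssl1 fell on all 3 of its probes, and Adss, the gene of most other tissues, did not pass. The sequences before their transcription starts are shown because this pair encodes the same enzyme step and 1 of them fell. Each line gives the 250 bases before the annotated start from RefSeq (build GRCm38.p6), 5′ to 3′ on the strand of the gene. Capitals mark matches, on both strands, to the GC box GGGCGG and to a loose MEF2 pattern, CTA and TAG separated by any 4 bases.
Adssl1, chr12:112619797-112620046, plus strand: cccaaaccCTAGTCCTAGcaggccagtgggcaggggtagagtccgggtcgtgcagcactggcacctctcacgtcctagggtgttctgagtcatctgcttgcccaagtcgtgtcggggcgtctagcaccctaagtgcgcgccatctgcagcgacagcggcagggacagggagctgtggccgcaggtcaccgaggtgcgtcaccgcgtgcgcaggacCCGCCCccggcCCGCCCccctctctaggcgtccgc
Adss, chr1:177796510-177796759, minus strand: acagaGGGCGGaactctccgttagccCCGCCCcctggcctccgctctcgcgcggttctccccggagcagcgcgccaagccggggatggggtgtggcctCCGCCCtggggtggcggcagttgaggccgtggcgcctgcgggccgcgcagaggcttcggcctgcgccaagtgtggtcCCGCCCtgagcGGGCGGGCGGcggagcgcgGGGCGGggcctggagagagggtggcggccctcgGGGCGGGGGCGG
The Adssl1 window has 2 GC boxes and 1 match to the loose MEF2 pattern and is 68.4% G and C. The Adss window has 9 GC boxes, some of them overlapping, and is 78.8% G and C. Between CTA and TAG the Adssl1 match reads GTCC, where the MEF2 consensus has only A or T, so it falls outside that consensus. Among 32851 RefSeq windows of this length, 32.7% hold a GC box and 3.20% a match to the loose MEF2 pattern. Windows were matched for 6 of the 8 members, all but Ampd1 and Xdh. The core AAGGTCA of the estrogen-related receptor site, searched because these receptors are partners of PGC-1 coactivators, was found in 1 of the 12 member windows, an Ak1 window (chr2:32628140-32628389), against 4.08% of all windows. The E-box CAGCTG was found in 2 of the 12, both of Ak1, against 13% of all, and the TATA box TATAAA in 0 of the 12, against 12.4%. Ak1 has 4 of these windows, and counts over so few windows set no motif apart from the background. A match is a match of letters and not a bound site.

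The brightest Adssl1 probe (ILMN_2958099) gave unnormalized signals of 24666, 24528.5 and 24802.9 in wild type and 13269.9, 11399.9 and 11384.7 in the arrays labelled transgenic. The wild-type values were nearly equal and lay near the top of the scale of these arrays, whose brightest probes reached 27247.7 to 34205.1. The log2 level fell from 14.52 ± 0.01 to 13.58 ± 0.11 (SD, n = 3), a difference of -0.94 (SE 0.11, adjusted p = 0.000142), or 1.92-fold. The middle probe (ILMN_1245079) gave 14593.3, 15107.9 and 14281 against 6041.8, 4732.1 and 5423.9, a difference of -1.44 (adjusted p = 2.86e-05). The dimmest (ILMN_2711688) gave 1861.6, 1608.2 and 1493.1 against 585.4, 538.2 and 535.6, a difference of -1.84 (adjusted p = 4.87e-06), or 3.59-fold. No probe had overlapping groups. The 95% intervals of the brightest and the dimmest probe, from -1.20 to -0.69 and from -2.12 to -1.57, did not overlap, so the direction of the Adssl1 change is shared by the probes and its size is not.

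The one tested Adss probe was near background: its wild-type signals were 110.9, 79.8 and 91.7, with the second not above background, and 134.8, 126.9 and 111.4 in the arrays labelled transgenic. Every signal labelled transgenic was higher before normalization, but after it wild-type replicate 1, at a log2 level of 6.03, exceeded all 3 of them. The difference was 0.47 with a 95% interval from -0.07 to 1.02 (adjusted p = 0.128), and single arrays decide its size. It was 0.78 and passed without wild-type replicate 1 (adjusted p = 0.00837), and it was 0.20 without wild-type replicate 2 (adjusted p = 0.414). Over all alternatives it ranged from 0.20 to 0.81.

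Adsl, whose product serves both the cycle and purine synthesis, did not pass. Wild-type signals of Adsl were 1181.7, 970.3 and 1035.2, against 1155.3, 958 and 1078.2 in the arrays labelled transgenic, with the groups overlapping. The log2 levels were 10.06 ± 0.11 and 9.88 ± 0.18 (SD, n = 3). The difference of -0.17 had a 95% interval from -0.48 to 0.13 (adjusted p = 0.301), which leaves out a fall of the size seen for Ampd1 or Adssl1. Without transgenic replicate 2 it was -0.08, and without transgenic replicate 3 it was -0.26. Its differences from theirs were not tested.

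Ak1, the cytosolic adenylate kinase gene of muscle, fell. Wild-type signals were 6629.5, 6878.9 and 6233.6, against 3529.2, 3401.4 and 3228 in the arrays labelled transgenic, with no overlap. Its log2 level went from 12.67 ± 0.07 to 11.64 ± 0.03 (SD, n = 3), a difference of -1.03 (SE 0.11, adjusted p = 6.79e-05), or 2.05-fold, larger than 85.0% of the absolute differences of all tested probes. The array carries 1 Ak1 probe.

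Xdh, known in muscle mainly from the capillary endothelium and also expressed by macrophages, was higher on average but did not pass. Wild-type signals of Xdh were 527.7, 488.4 and 563.4, against 820.7, 949.2 and 573.9 in the arrays labelled transgenic. Transgenic replicate 3 lay close to the wild-type values, and after normalization its log2 level of 9.07 was below the 9.14 of wild-type replicate 3. The difference was 0.37 with a 95% interval from 0.00068 to 0.74 (adjusted p = 0.0841). Without transgenic replicate 3 it was 0.53 and passed (adjusted p = 0.0204), and without transgenic replicate 2 it was 0.22 (adjusted p = 0.266). Of 13 endothelial markers tested 4 fell and 0 rose, beside 27.7% and 27.6% of all genes, so the share that fell was near the background. Their summed signal was 18210 to 20600 in wild type and 13860 to 15580 in the arrays labelled transgenic. Aqp1, the brightest of them, fell by 0.73 on the log2 scale and weighs most in this sum. The macrophage markers rose, and the part of either set in the Xdh values was not tested.

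**Figure D3:**
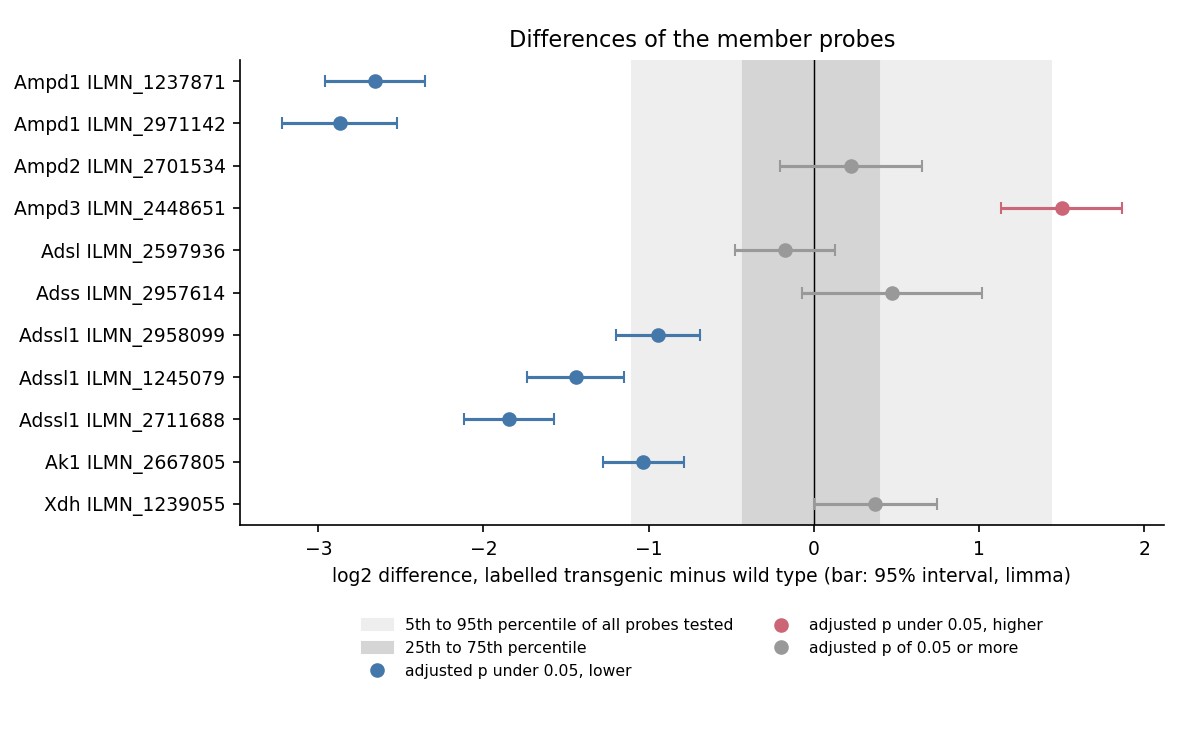
Points are log2 differences, labelled transgenic minus wild type, of the 11 tested member probes, with 95% intervals from limma, and the shaded bands show where the middle of all tested probes lay. Both Ampd1 probes and 2 of the 3 Adssl1 probes fall below the 5th percentile of all probes (-1.10) and Ampd3 lies just above the 95th (1.44), while Ampd2, Adsl and Xdh lie inside the 25th to 75th percentile band, from -0.43 to 0.39, and Adss lies just beyond it.

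The genes whose levels moved most like a member were found by the root mean square distance of mean-centred log2 levels over the 6 arrays. For Ampd1 they were Tigar (distance 0.069), which encodes a fructose bisphosphatase that restrains glycolysis, the skeletal myosin light chain kinase gene Mylk2 (0.082) and Tpra1 (0.088), with differences of -2.64, -2.77 and -2.67. For Ampd3 they were Rgs3 (0.059), a regulator of G-protein signalling, Rufy3 (0.080) and Rgcc (0.084). For Adssl1 they were the actin-binding gene Tagln (0.022), Ccdc43 (0.040) and the titin gene Ttn (0.040). Adss was nearest to Tent2 (0.079), Fam102a (0.085) and the leukocyte integrin gene Itgal (0.14), and Xdh to C1qtnf2 (0.052), Jaml (0.057) and Pip5k1b (0.067). The 6 arrays fall in 2 groups, so a gene with a like difference between the groups scores as near.

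The other genes of purine metabolism went both ways. Over 8 lists 45 genes were tested, of which 20 rose and 11 fell, beside 27.6% and 27.7% of all 9978 genes, and their median difference was 0.28 against -0.03 over all genes. These counts hold Slc29a4 among the higher and Nme5 among the lower genes, each of which passed the detection filter only through the group where it is high, so neither call is evidence beyond that detection. Genes that make IMP from the beginning were lower: of 7 tested genes of purine synthesis and its PRPP supply 5 fell and 0 rose, with a median of -0.67. Ppat, the first committed step, fell by 0.97, the PRPP synthetase gene Prps1 by 0.93, Atic, which closes the IMP ring, by 0.78, Pfas by 0.67 and Gart by 0.57 on the log2 scale, with adjusted p of 0.000331 to 0.0114. The second Pfas probe had a difference of 0.06 and did not pass. With each array scaled to its median 2 of the 7, Ppat and Prps1, still passed. Prpsap2 was above background on 1 wild-type array only and was not tested. Of the 6 salvage genes 2 rose and 2 fell: the adenosine deaminase-like gene Adal fell by 1.23 and the methylthioadenosine phosphorylase gene Mtap by 0.94, while Aprt and Hprt, which rebuild AMP and IMP from free bases, rose by 0.37 and 0.34. These small rises no longer passed with arrays scaled to the probes detected on all arrays (adjusted p = 0.192 and 0.205) or without transgenic replicate 3 (0.0535 and 0.0689). Neither of the 2 other Hprt probes passed. Hprt was also lost without wild-type replicate 2, wild-type replicate 3 or transgenic replicate 2, and Aprt without wild-type replicate 1 or transgenic replicate 1, with adjusted p up to 0.0825.

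The few tested genes that carry IMP toward guanine nucleotides were higher, as were several that dephosphorylate nucleotides. Of 7 genes listed from IMP to guanine nucleotides 3 were tested, and all 3 rose. No probe was matched to Impdh2, Gmpr or Gmpr2, and Gda was not tested. Between IMP and GMP, the GMP synthetase gene Gmps rose by 0.68 and the IMP dehydrogenase gene Impdh1 by 0.53. The guanylate kinase gene Guk1, which acts on GMP, rose by 1.52 (adjusted p = 2.22e-05). The Gmps rise missed the threshold on leaving out wild-type replicate 1, wild-type replicate 3, transgenic replicate 1 or transgenic replicate 3, with adjusted p of 0.0502 to 0.0659, and with no filter on dim probes (0.0703). Of 7 tested genes of nucleotidases and purine breakdown 3 rose and 0 fell, beside 27.6% and 27.7% of all genes. Those that rose were the nucleotidase genes Nt5c by 0.89, Nt5m by 0.62 and Nt5c3b by 0.40. The last was lost without wild-type replicate 1, transgenic replicate 1 or transgenic replicate 2 (adjusted p = 0.0622 to 0.0885), and its second probe, at 0.38, did not pass. Of the other adenylate kinases 2 were tested: the mitochondrial Ak4 rose by 0.47 (adjusted p = 0.0431), a call kept in 7 of 17 alternatives and lost without any one of wild-type replicates 1, 2 and 3 and transgenic replicates 1 and 3, and Ak3 had a difference of 0.18 (adjusted p = 0.273).

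Of 6 nucleoside diphosphate kinase genes 2 rose and 2 fell, beside 27.6% and 27.7% of all genes. Nme1 rose by 1.53 (adjusted p = 1.77e-05) and the brightest Nme7 probe by 0.42, while Nme3 fell by 0.48. Nme5, known from cilia and sperm, was above background on all wild-type arrays and on no array labelled transgenic, and was at least 2.50-fold lower there, the wild-type mean being set against the lowest signal above background. Nme1 and Nme2 are near-identical in sequence, so their probes may share signal, and Nme2 had a difference of -0.16 (adjusted p = 0.262). The 5 other Nme7 probes did not pass, and the Nme7 call was lost without wild-type replicate 3, transgenic replicate 1 or transgenic replicate 3 (adjusted p up to 0.0713), and with arrays scaled to their median (0.0507) or to the probes detected on all arrays (0.600). The Nme3 call was lost without wild-type replicate 3 (adjusted p = 0.06) and with arrays scaled to their median (0.261).

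The cycle consumes aspartate and returns fumarate. Of 6 tested genes listed for these, 4 rose and 1 fell, though Mdh1, Mdh2 and Glud1 are linked to them only through neighbouring steps. The mitochondrial aspartate aminotransferase gene Got2 rose by 0.76, the cytosolic malate dehydrogenase gene Mdh1 by 0.57, the fumarase gene Fh1 by 0.51 and the glutamate dehydrogenase gene Glud1 by 0.45, and the aspartate-glutamate carrier gene Slc25a12 fell by 0.37. Scaling the arrays to the probes detected on every array took Fh1 and Glud1 off the threshold (adjusted p = 0.0669 and 0.0844), and 1 further probe of each did not pass, at 0.04 for Fh1 and -0.02 for Glud1. Mdh1 was lost without wild-type replicate 2, wild-type replicate 3, transgenic replicate 2 or transgenic replicate 3, and Slc25a12 without any one of wild-type replicates 1, 2 and 3 and transgenic replicates 2 and 3, with adjusted p of 0.0557 to 0.115. Slc25a12 was also lost with arrays scaled to their median (0.0939) and with the authors' value table (0.0553), and its second probe, at -0.27, did not pass. Mdh1 was also lost with no filter on dim probes (adjusted p = 0.0641). Of 8 tested genes of nucleoside transport and of the Entpd nucleotidase family 5 rose, Slc29a4 among them, and 1 fell, beside 27.6% and 27.7% of all genes. The transporter gene Slc29a4 was below detection on all wild-type arrays and was at least 18.1-fold higher in the arrays labelled transgenic by its brightest probe. A second Slc29a4 probe, also detected only in the latter, had a fitted difference of 1.11, so the probes do not share a size. The lysosomal nucleoside transporter gene Slc29a3 rose by 1.33. The nucleotidase genes Entpd2 and Entpd4 rose by 0.83 and 0.51, and Entpd6 fell by 1.40. A second Entpd4 probe fell by 0.70, so its probes disagree, and the Entpd4 rise was lost with arrays scaled to the probes detected on all arrays (adjusted p = 0.150). The macrophage and matrix markers rose in the same arrays, while the purine lists went both ways, and the part of these markers in any list was not tested.

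**Figure D4:**
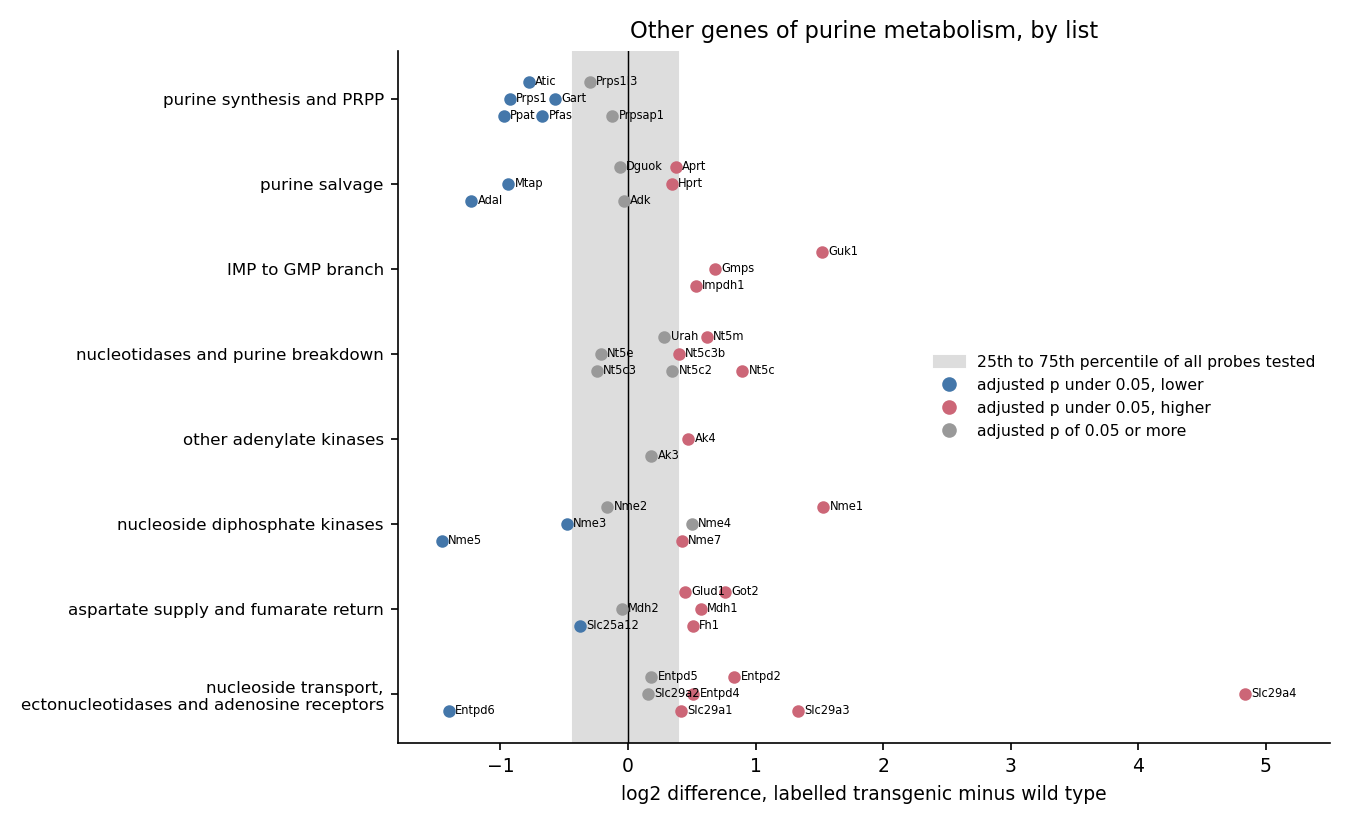
Each point is the log2 difference, labelled transgenic minus wild type, of 1 of the 45 tested genes in 8 lists of purine metabolism, coloured by whether and in which direction it passed the threshold. The 5 synthesis genes that passed lie to the left of 0, and the 3 genes listed from IMP to guanine nucleotides lie to the right. Slc29a4, not above background in wild type, lies furthest out.

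The member differences kept their direction under all 17 alternatives tried, or 16 for the probes that an alternative left out. The 7 calls were kept in each of them: the brighter Ampd1 probe ranged from -2.99 to -2.57, Ampd3 from 1.31 to 1.71, the brightest Adssl1 probe from -1.35 to -0.90 and Ak1 from -1.27 to -0.98. When each array was scaled to its own median and not quantile-normalized, the median over all probes moved from -0.05 to 0.18. Over all probes 6108 were then higher and 2604 lower, against 4376 and 4792, and Ampd2, Adss and Xdh passed as higher, at 0.56, 0.78 and 0.54 (adjusted p = 0.0356, 0.0151 and 0.0352).

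**Figure D5:**
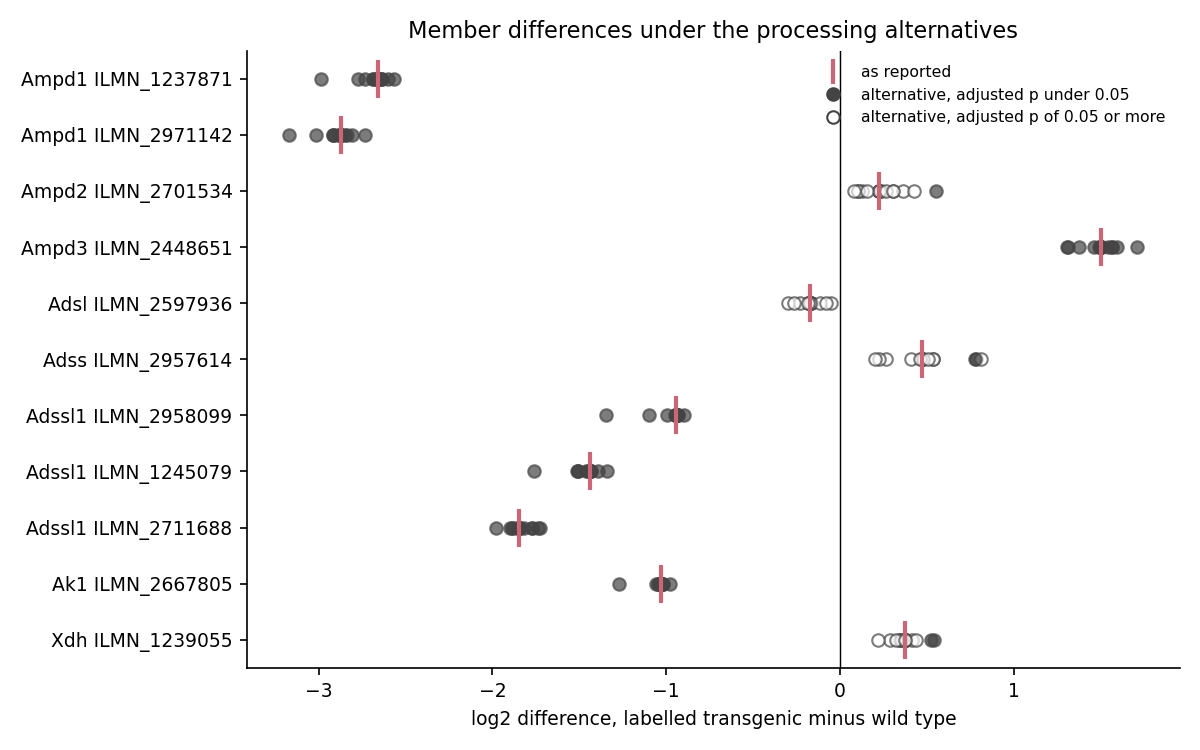
The log2 difference of each tested member probe is marked as reported (red bar) and under each processing alternative (circles, filled where the adjusted p was under 0.05). No circle crosses 0, all circles of Ampd1, Ampd3, Adssl1 and Ak1 are filled, and Ampd2, Adss and Xdh have filled circles under some alternatives only.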

How the data were processed

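Total RNA of 6 tibialis anterior samples, 300 ng each, was amplified with an oligo-dT primer and labelled, per the labels' protocols, and hybridised to 1-colour Illumina Mouse WG-6 v2 arrays. The submitters' processing notes name GenomeStudio. Per the file headers, 1 deposited table lists for every probe the unnormalized intensity on each array beside its detection p-value. The second table the authors deposited holds intensity values with like quantiles in every column and values below 0 (column medians 6.2 or 6.3), so background-subtracted and normalized, with settings not given in the sources used here; it served as an alternative.

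Processing here started from the unnormalized intensities and used limma 3.58.1 (R 4.3.3): normexp background correction with negative controls inferred from the detection p-values, an offset of 16, quantile normalization and log2. Probes with detection p under 0.05 on at least 3 of 6 arrays were kept, 17166 of 45281. Genotypes were compared per probe with lmFit and eBayes, two-sided, with Benjamini-Hochberg adjustment over all kept probes and a threshold of 0.05. The kept probe with the highest mean level stood for its gene in the lists. A marker sum adds the normalized linear signals of a list's tested genes. A lower bound sets the bright group's mean against the higher of the probe's own signal and the lowest detected signal on each array. The fit was tested on simulated data. The number of arrays limits the precision.

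Gene names are those of the platform annotation (1 symbol for 34885 probes, several for 18, none for 10378); the 8 member symbols matched the RefSeq table. The members, lists and motifs were chosen with earlier results of these data known. Genes named are the members, up to 5 called genes per list by size of difference or up to 2 by p where none was called, genes with only a bound, and the 3 genes nearest to Ampd1, Ampd3, Adssl1, Adss and Xdh; marker genes and further probes were named after their values were seen. No pairing of the arrays by replicate number was seen, though so few arrays cannot exclude one. Alternatives varied the background correction, the scaling, the table used, the filter, the number of probes per gene, the variance model, weights for arrays, a replicate block and the arrays included. A block for BeadChip could not be fitted, because the files used here name none.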

Additional observations from a re-analysis of the deposited data

How the results depend on the processing

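The 11 member differences kept their direction under every alternative run, and none of the 7 member calls was lost. The number of member probes higher was 2 with no background correction and with a trended, robust variance model, in both by adding Xdh, 4 with arrays scaled to their median, and 1 to 2 when single arrays were left out. With 1 probe per gene 3 members were lower, because the further probes were not fitted, and 2801 genes were higher and 2812 lower in all. With arrays scaled to their median 2604 of all probes and 6 of the purine pathway genes were lower, the median difference of all probes turned to 0.18, and the shift of Ampd3 minus Ampd1 was 4.45, as it was with arrays scaled to the detected probes. With single arrays left out 14 to 18 pathway genes were higher and 9 to 11 lower. The deviations of arrays with the same replicate number correlated at -0.0491, 0.0322 and -0.00914, and not every array correlated best with its own number. No pairing by number was seen, but 3 arrays per group are too few to exclude one. With the replicate block 1 member probe was higher and 6 lower, and 4185 probes were higher and 4512 lower in all. The calls of Hprt, Ak4 and Slc25a12 were then lost (adjusted p = 0.0610, 0.0641 and 0.0538). Signals near background limit Ampd2 and Adss, and the 4 member probes not above background on any array say nothing about their genes.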

Other observations

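Some probes that did not stand for their gene differed from the one that did, and are given as values chosen after they were seen. Of 25 purine pathway genes with 2 or more tested probes, 12 had some probes past the threshold and some not, and 1, Entpd4, had probes in opposite directions. A dimmer Entpd5 probe, for a nucleotidase of the endoplasmic reticulum, had a difference of 1.54 where the brighter one had 0.18. A dimmer Ak3 probe had a difference of -0.44, past the threshold, beside 0.18 and 0.26 for its other probes. The 4 Adal probes had differences from -1.23 to -0.39, of which 3 passed.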
